A study of Mus musculus with 8 samples.

Results

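The 9 genes described here are those whose surface proteins defined the sorting gate for dermal fibroblasts, with a pair of further surface genes of fibroblasts. Pdgfra and Cd34 encode the proteins the cells were sorted for, and Ptprc (CD45), Kit (CD117), Cd24a (CD24), Pecam1 (CD31) and Epcam those they were sorted against. Pdgfrb and Thy1 were not part of the gate. Every probe set annotated to one of these genes alone was taken, which gave 11 of the 28898 probe sets with 1 gene, in all 8 samples. Cd24a and Epcam had 2 probe sets each and the other genes 1 each. A further 15588 probe sets that were not controls had no gene in the annotation used, so more probe sets for these genes may be on the array.

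The samples were 4 GW9662-treated mice and 4 vehicle-treated mice, with 1 array per animal. GW9662, which blocks PPARG, a nuclear receptor of lipid metabolism, by binding it covalently, was put on the back skin at 150 nmol in 300 µl of acetone, 3 times a week for 6 months. Vehicle animals received 300 µl of acetone alone on the same schedule. All animals were 12 months old at the start, and their strain and sex are not given in the sources used here. From each, the dermis was digested with collagenase after removal of the subdermis, and RNA of 5000 sorted cells was amplified over 21 cycles.

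The receptors for platelet-derived growth factor (PDGF) are tyrosine kinases that pair up when a dimeric ligand binds. PDGFRA is the usual mark of mesenchymal cells of the dermis, and PDGFRB is shared by fibroblasts and the mural cells of vessels. CD34 is a sialomucin found on dermal fibroblasts, blood stem cells and endothelium, and THY1 (CD90) is a surface glycoprotein of fibroblasts and, in mice, of T cells. The excluded proteins mark other cells of skin. CD45 is the tyrosine phosphatase of all leukocytes, KIT is the stem cell factor receptor of mast cells and melanocytes, CD24 is a small anchored sialoprotein of epithelial and progenitor cells, CD31 is an endothelial adhesion molecule and EpCAM is an adhesion molecule of epithelia.

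Promoter sequences are shown for Cd34, the sorted-for gene at the upper end of the signal range, and for Kit and Epcam, sorted against and at the lower end. Each is the 250 bases before the gene's start in RefSeq (GRCm38.p6), written 5′ to 3′ on the gene's strand, with every CG dinucleotide in capitals.
Cd34 (chr1:194938571-194938820, plus strand): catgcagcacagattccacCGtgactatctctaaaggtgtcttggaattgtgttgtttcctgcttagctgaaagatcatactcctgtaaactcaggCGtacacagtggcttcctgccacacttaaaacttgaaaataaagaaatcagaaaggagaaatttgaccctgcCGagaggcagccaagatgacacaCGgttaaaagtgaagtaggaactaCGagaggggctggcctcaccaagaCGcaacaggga
Kit (chr5:75574737-75574986, plus strand): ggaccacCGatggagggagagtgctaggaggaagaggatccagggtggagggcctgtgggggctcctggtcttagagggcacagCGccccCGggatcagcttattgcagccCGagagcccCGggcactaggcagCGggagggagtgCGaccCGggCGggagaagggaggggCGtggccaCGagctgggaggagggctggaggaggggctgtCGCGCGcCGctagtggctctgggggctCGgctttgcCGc
Epcam (chr17:87635729-87635978, plus strand): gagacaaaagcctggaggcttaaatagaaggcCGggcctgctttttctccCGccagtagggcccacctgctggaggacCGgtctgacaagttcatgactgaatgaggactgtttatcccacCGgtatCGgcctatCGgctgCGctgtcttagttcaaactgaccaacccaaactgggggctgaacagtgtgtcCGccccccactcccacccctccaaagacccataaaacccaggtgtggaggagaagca
Cd34, at the high end of the signals, had 6 CG dinucleotides, the same number as the median of the 32851 promoter windows in the table. Epcam had 8 and Kit 17, so both genes shown from the low end had more. A count as high as that of Kit was reached by 23.5% of the windows, and 92.1% held at least 1 CG. Pdgfra had 4 CG in its window. Ptprc, whose signal was the lowest on every array, had 4 and 2 in its 2 windows, fewer than Cd34. Promoter windows were at hand for 5 of the genes described here, and not for Thy1, Pdgfrb, Cd24a and Pecam1. Among the genes with a window, the count of Cd34 lay between those of Ptprc and Epcam, which both had lower signals. Cd34 was the only gene of high signal with a count, so whether CG counts divide the genes by signal was not tested.

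The genes fell into a high and a low group of signals, and Pdgfra was not in the high one. Thy1, Cd34 and Pdgfrb lay in the top of each array's distribution, while Ptprc, Kit, Cd24a and Epcam lay in its lower part in all 8 samples. On each array, the lowest of Thy1, Cd34 and Pdgfrb exceeded the highest of the 5 genes sorted against by 3.71 to 4.48 on the log2 scale. The listed probe set of Pdgfra, although its protein was sorted for, stood near the middle of the distribution beside Pecam1. Signals of different probe sets are not amounts of transcript, since probes bind with different strength, so each is given with its percentile among the 45037 probe sets of its array. No detection calls were used. As a scale for low signal, 87 probe sets of 82 odorant, vomeronasal and taste receptor genes were taken, which are little transcribed outside sensory tissue. Their mean log2 signals had a median of 3.36 and a 95th percentile of 5.16, with 1 set as high as 7.46.

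**Figure D1:**
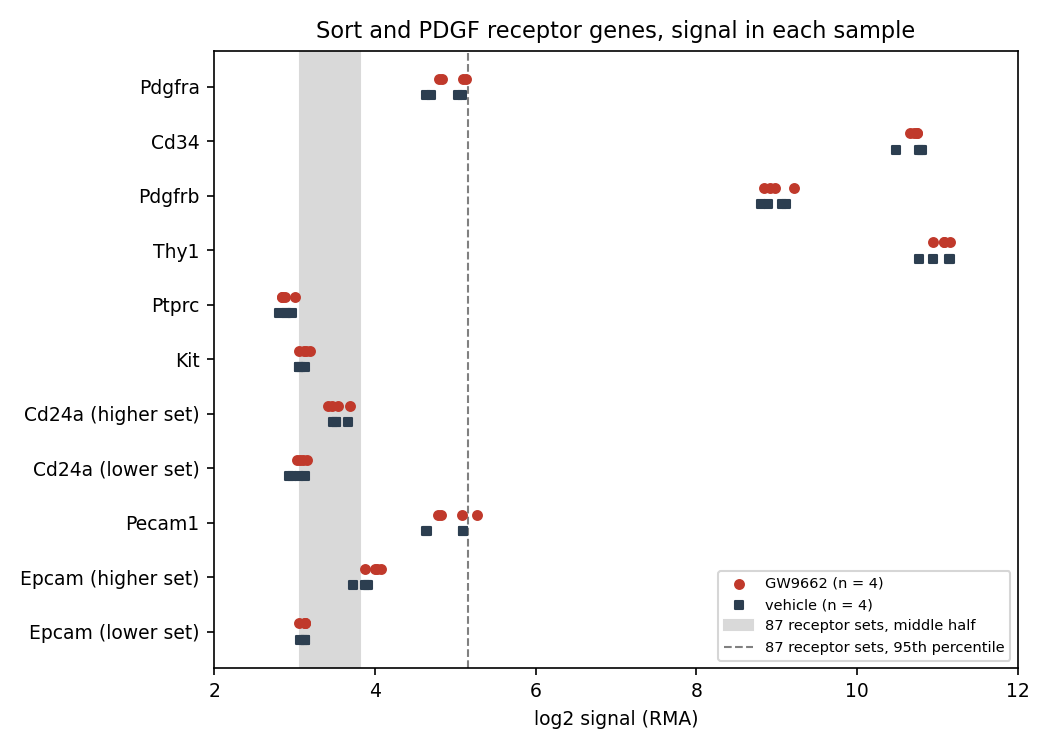
Log2 signal of each of the 11 probe sets (rows) in each GW9662 sample (circles) and vehicle sample (squares), with the interquartile range (shaded) and the 95th percentile of the 87 receptor probe sets. Thy1, Cd34 and Pdgfrb lie between 8.81 and 11.16, and the other probe sets between 2.81 and 5.27.

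Among the genes of the proteins sorted for, Cd34 (probe set 1416072_PM_at) measured 10.66, 10.74, 10.71 and 10.75 in GW9662 samples 1 to 4, and 10.77, 10.81, 10.79 and 10.49 in vehicle samples 1 to 4. Vehicle 4 was lowest of all 8, and the 4 GW9662 values lay inside the range of the vehicle values. Its percentile ran from 99.0 to 99.3. Pdgfra (1438946_PM_at) measured 4.83, 5.09, 4.80 and 5.13 in GW9662 samples, and 4.70, 5.08, 5.03 and 4.63 in vehicle samples. The groups overlapped, with vehicle 4 again lowest. Its percentile ran from 48.9 to 58.5, and 81 of the 87 receptor probe sets had a lower mean. In 4 of the 8 samples Pdgfra had a lower signal than Pecam1, with differences of Pdgfra minus Pecam1 from -0.47 to 0.45. The array signal of this one probe set therefore did not separate a gene sorted for from one sorted against.

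Of the fibroblast surface genes outside the gate, Thy1 (1423135_PM_at) measured 10.94, 11.16, 11.08 and 11.08 in GW9662 samples, and 10.95, 11.15, 11.16 and 10.77 in vehicle samples. Vehicle 4 was the lowest sample here as well. Thy1 had the highest signal of the 9 genes on every array, at percentiles of 99.3 to 99.6. Pdgfrb (1417148_PM_at) measured 9.21, 8.84, 8.92 and 8.98 in GW9662 samples, and 9.06, 9.11, 8.81 and 8.89 in vehicle samples. GW9662 1 was highest and vehicle 3 lowest, and the groups overlapped. The percentile of Pdgfrb ran from 95 to 96.7. All 87 receptor probe sets had a lower mean than Thy1, Cd34 or Pdgfrb.

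Of the genes sorted against, Ptprc (1422124_PM_a_at) had the lowest signal on every array. It measured 2.84, 2.88, 3.01 and 2.84 in GW9662 samples, and 2.89, 2.91, 2.97 and 2.81 in vehicle samples, at percentiles of 0.849 to 3.74. Only 9 of the 87 receptor probe sets had a lower mean. Kit (1452514_PM_a_at) measured 3.06, 3.12, 3.14 and 3.19 in GW9662 samples, and 3.05, 3.06, 3.13 and 3.08 in vehicle samples. All 8 values of Kit lay within 0.14 of each other, with percentiles of 4.86 to 8.61. Both genes thus lay among the receptor sets in every sample of both groups.

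The 2 probe sets of Cd24a were also low. The higher one (1416034_PM_at) measured 3.41, 3.47, 3.54 and 3.69 in GW9662 samples, and 3.52, 3.48, 3.66 and 3.52 in vehicle samples. The lower one (1448182_PM_a_at) lay between 3.03 and 3.16 in GW9662 samples and between 2.93 and 3.13 in vehicle samples. The 2 sets showed little relation to each other (Pearson r = 0.15 over the 8 samples, which share each array). Their percentiles ran from 16.1 to 25.1 and from 2.31 to 7.41.

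Epcam had a higher set (1416579_PM_a_at) at 3.88, 4.03, 4.00 and 4.07 in GW9662 samples, and 3.90, 3.87, 3.73 and 3.91 in vehicle samples. Of the GW9662 samples, 3 exceeded every vehicle sample, and GW9662 1 lay inside the vehicle range. The lower set (1447899_PM_x_at), whose suffix marks probes that may bind other sequences too, lay between 3.06 and 3.13 in both groups. The 2 sets differed by 0.60 to 0.94 within a sample and had a Pearson r of 0.30 over the 8 samples. The percentile of the higher set ran from 26.9 to 36.5, with 70 of the 87 receptor sets below its mean.

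Pecam1 had the highest signal among the genes sorted against and the widest spread of the 11 probe sets. Its probe set (1421287_PM_a_at) measured 4.79, 4.82, 5.08 and 5.27 in GW9662 samples, and 4.65, 4.63, 5.10 and 5.10 in vehicle samples. Samples 3 and 4 were higher than samples 1 and 2 in each group, and the groups overlapped. Per the design text, 1 animal of each group was collected on the same day. That same-numbered samples share a day was inferred. With its percentile at 49.6 to 60.8, Pecam1 lay above 81 of the 87 receptor probe sets.

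GW9662 and vehicle samples did not differ past the test in any of the 9 genes. Of the 11 probe sets, 0 passed limma's test adjusted over all 45037 probe sets, with a smallest adjusted p of 0.997, and 0 had an unadjusted p under 0.05. Of all probe sets tested, 0% passed adjustment, 3.55% had an unadjusted p under 0.05 (1.81% higher and 1.74% lower after GW9662) and 1.9% had groups that did not overlap. None of the 11 had groups that did not overlap. By any amount, 8 were higher and 2 lower after GW9662, and Cd34 was at 0.00. Their median log2 fold change was 0.05, beside -0.0025 over all probe sets, of which 47.8% were higher. The p-values set each group difference against the spread between animals within groups, which limma moderates over all probe sets.

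The 95% intervals show how precisely the differences in signal were estimated from these 8 samples. Cd34 averaged 10.72 ± 0.04 after GW9662 and 10.72 ± 0.15 in vehicle (SD, n = 4 each), and its log2 fold change had a 95% interval from -0.17 to 0.17. For Pdgfra the log2 fold change was 0.10 ± 0.12 (SE), with an interval from -0.17 to 0.37. Pdgfrb and Thy1 were at 0.02 ± 0.10 and 0.06 ± 0.09 (SE), with intervals from -0.19 to 0.23 and from -0.15 to 0.27. Among the genes sorted against, Ptprc was at -0.0025, within an interval from -0.14 to 0.14, and Kit at 0.05, within an interval from -0.07 to 0.17. The sets of Cd24a were at -0.02 and 0.07. Pecam1 was at 0.12 ± 0.14 (SE) and had the highest bound of all, 0.44. The widest of these bounds corresponds to a fold of 1.36 in signal. Ptprc, Kit, the sets of Cd24a and the lower Epcam set had signals among those of the receptor sets. Pdgfra, Pecam1 and the higher Epcam set also had means below the 95th percentile of the receptor sets, 5.16. The intervals of all these sets therefore describe differences in signal and set no limit on differences in transcript.

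The higher Epcam set came closest to a difference, although its mean was below the 95th percentile of the receptor sets, 5.16. It averaged 4.00 ± 0.08 after GW9662 and 3.85 ± 0.08 in vehicle (SD, n = 4 each), a log2 fold change of 0.14 ± 0.07 (SE) with a 95% interval from -0.005 to 0.29. Its unadjusted p in limma was 0.0568 and its adjusted p 0.997. It was higher after GW9662 in 3 of 4 pairs of same-numbered samples, by 0.16, 0.27 and 0.16, and lower by 0.02 in pair 1. The lower Epcam set was at 0.0025, with an interval from -0.11 to 0.12. The mean of the keratinocyte list, which holds Epcam, was at 4.80 to 4.89 in GW9662 samples and 4.83 to 4.90 in vehicle samples.

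**Figure D2:**
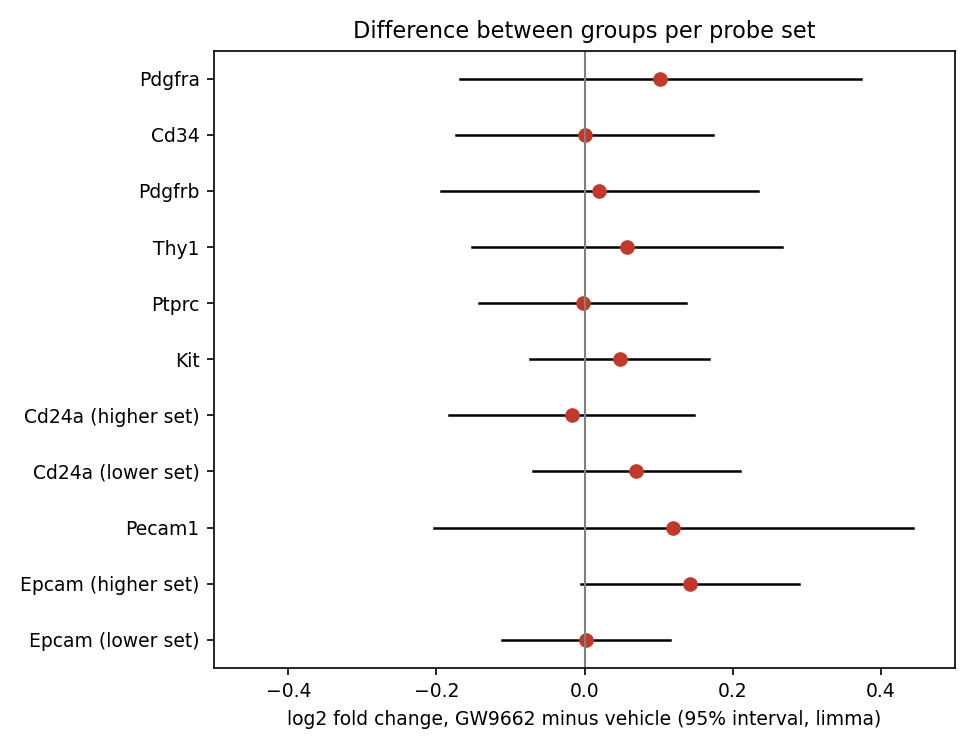
Log2 fold change of each probe set, GW9662 minus vehicle, as a point with its 95% interval from limma (n = 4 per group). All 11 intervals include 0, and that of the higher Epcam set begins at -0.005.

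Vehicle 4 stood apart from the other samples, and leaving it out moved the differences in Pdgfra, Cd34 and Thy1. On the first principal component of all probe sets it lay at 33.7, against -17.6 to 9.01 for the other 7. It was the lowest sample for Pdgfra, Cd34, Thy1 and Ptprc. In pair 4, GW9662 minus vehicle was 0.50 for Pdgfra, 0.26 for Cd34 and 0.31 for Thy1, while in the other pairs these differences ran from -0.23 to 0.13, from -0.11 to -0.07 and from -0.08 to 0.01. Without vehicle 4 the log2 fold change was 0.03 for Pdgfra, -0.08 for Cd34 and -0.02 for Thy1. The mean of the fibroblast list was 10.20 in GW9662 4 and 10.15 in vehicle 4, the lowest sample of each group, and 10.23 to 10.35 in the other 6. GW9662 minus vehicle for that mean was 0.05, 0.03, 0.06 and 0.05 in pairs 1 to 4, so pair 4 was like the others in it. Its part in the results for Pdgfra, Cd34 and Thy1 was not tested.

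**Figure D3:**
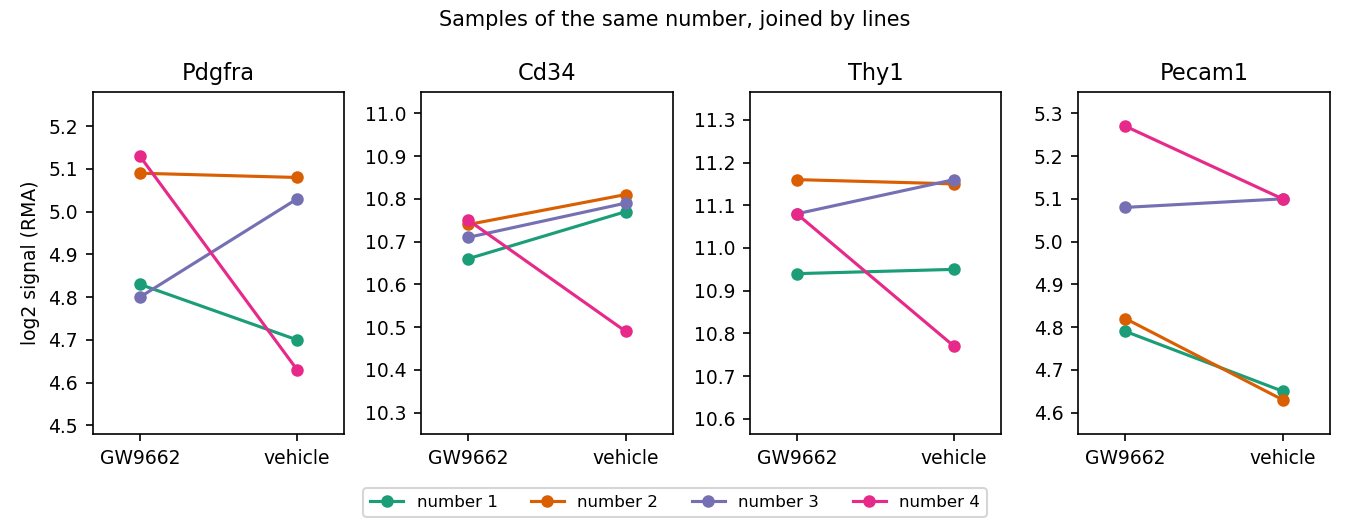
Log2 signal of Pdgfra, Cd34, Thy1 and Pecam1 in GW9662 and vehicle samples, with lines joining samples of the same number; each panel spans 0.8 on the log2 scale. Vehicle 4 is lowest for Pdgfra, Cd34 and Thy1, and numbers 3 and 4 lie above numbers 1 and 2 in both groups for Pecam1.

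The fibroblast label was checked against marker genes, each by its brightest probe set. In bulk samples, fewer cells of a type and less RNA per cell cannot be told apart. All 19 measured fibroblast genes of 20 listed had a mean above 5.18, the 95th percentile of the 82 receptor genes, a mark that 51.5% of all 17097 genes passed. Dcn (decorin, which binds collagen fibrils) averaged 12.62 ± 0.03 after GW9662 and 12.64 ± 0.04 in vehicle, and the collagen gene Col1a1 12.48 ± 0.12 and 12.42 ± 0.12 in the same order (SD, n = 4 each).

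Markers of leukocytes, mast cells, melanocytes and endothelium were mostly below that mark, while 7 of 14 measured keratinocyte genes passed it. Of the leukocyte list, 5 of 18 measured genes passed it, namely Cd68, Cd79a, H2-Aa, Csf1r and H2-Ab1. Cd68, a lysosomal protein abundant in macrophages, averaged 8.20 ± 0.24 after GW9662 and 8.24 ± 0.22 in vehicle. Tyrobp and Lyz2, signalling and lysozyme genes of myeloid cells, averaged 4.01 and 3.84 after GW9662 and 3.97 and 3.84 in vehicle. Cd3e, a chain of the T cell receptor complex, averaged 4.42 and 4.54. Thus Ptprc, Tyrobp, Lyz2 and Cd3e lay below the mark and Cd68 above it. The mean of the leukocyte list, Ptprc included, ran from 4.81 to 4.87 in GW9662 samples and from 4.83 to 4.90 in vehicle samples.

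For KIT-bearing cells, 1 of 9 mast cell genes passed the mark, Cma1 (mast cell chymase), at 5.32 after GW9662 and 5.36 in vehicle. Cpa3, the mast cell carboxypeptidase, averaged 3.72 and 3.63 in the same order. The melanocyte list had 2 of 8 above, Mitf and Sox10. Mitf, a transcription factor of pigment cells that other cells also use, averaged 8.20 ± 0.25 after GW9662 and 8.37 ± 0.14 in vehicle, and Dct, a melanin enzyme, 3.83 and 3.74. The list means ran from 3.98 to 4.04 and from 4.84 to 4.99 in GW9662 samples, and from 3.99 to 4.03 and from 4.78 to 4.96 in vehicle samples.

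Of 14 measured keratinocyte genes, 7 passed the mark, as did 51.5% of all genes. Krt5 and Krt14, the keratins of basal epidermis, averaged 5.80 and 5.25 after GW9662 and 5.77 and 5.23 in vehicle. Krt10, of the upper epidermis, was the brightest of the list at 6.93 and 6.94. Lgals7, an epithelial galectin, was the 1 gene of the list with an unadjusted p under 0.05, at a log2 fold change of -0.24 ± 0.09 (SE; limma adjusted p = 0.997). It was lower after GW9662 in 3 pairs and equal in pair 2.

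**Figure D4:**
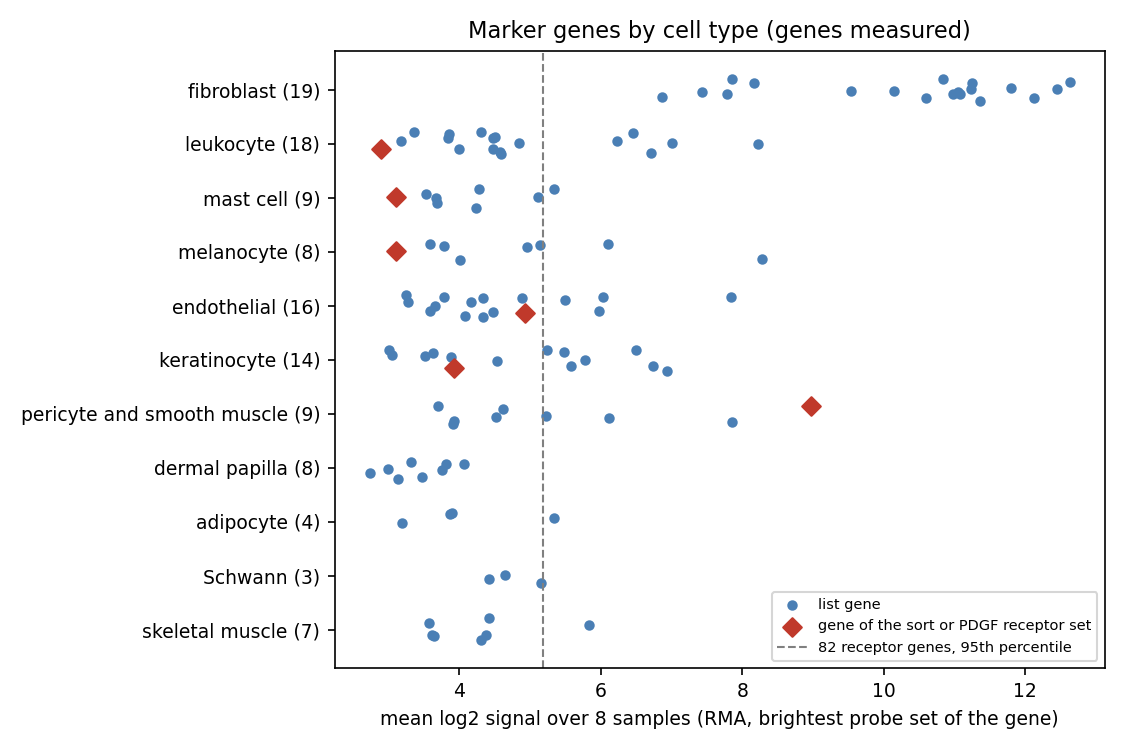
Mean log2 signal over the 8 samples of each measured marker gene, by cell type, with the genes of the sort or PDGF receptor set as diamonds and the 95th percentile of the 82 receptor genes as a dashed line. All 19 fibroblast genes lie right of the line, beside 5 of 18 leukocyte and 4 of 16 endothelial genes.

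The mean of the endothelial list followed the sample numbers as Pecam1 did, but most of its genes did not. The mean of the other 15 endothelial genes was 4.52, 4.60, 4.66 and 4.65 in GW9662 samples, and 4.46, 4.58, 4.70 and 4.73 in vehicle samples. Samples 3 and 4 were the higher ones of each group, as for Pecam1. Kdr, the VEGF receptor of endothelium, was the brightest of the list and measured 7.26, 8.10, 7.75 and 8.12 in GW9662 samples, and 6.72, 7.89, 8.58 and 8.28 in vehicle samples. Its lowest values were those of sample 1 in both groups. Kdr and Tek (an angiopoietin receptor) had the widest ranges of the 15, 1.86 and 1.18 on the log2 scale, beside 0.15 to 0.51 for the other 13. In 1 of the 15 genes, Tie1, samples 3 and 4 both exceeded samples 1 and 2 in each group. Cdh5, the cadherin that joins endothelial cells, stayed between 3.97 and 4.16, near the receptor genes. Only Kdr, Tek, Flt1 and Egfl7, 4 of 16 genes of the list, had a mean above the mark. The part of endothelial cells in the spread of Pecam1 was not tested.

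**Figure D5:**
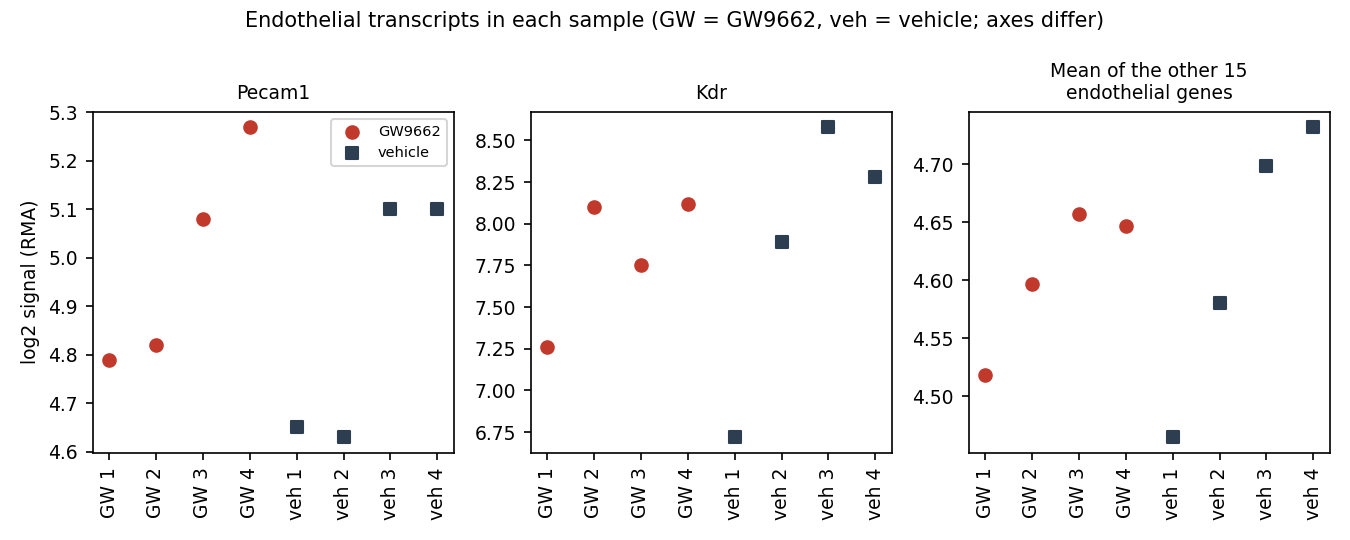
Log2 signal of Pecam1, of Kdr and of the mean of the other 15 endothelial genes (Kdr among them) in each GW9662 sample (circles) and vehicle sample (squares). Samples 3 and 4 of each group lie above samples 1 and 2 for Pecam1 and for the list mean, but GW9662 2 lies above GW9662 3 for Kdr.

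Pdgfrb was also listed with mural cells of vessels, whose other markers were mostly low. Of 9 measured genes of that list, 4 passed the mark, Pdgfrb itself, Kcnj8, Acta2 and Des. Rgs5, a defining gene of pericytes, averaged 3.86 ± 0.06 after GW9662 and 3.97 ± 0.25 in vehicle. Kcnj8, a potassium channel of mural cells, averaged 7.66 ± 0.37 and 8.05 ± 0.25 (SD, n = 4 each). Its log2 fold change of -0.39 ± 0.18 (SE) had an unadjusted p of 0.0574 in limma. The list mean ran from 5.28 to 5.46 in GW9662 samples and from 5.41 to 5.52 in vehicle samples. Of the other lists, 0 of 8 dermal papilla genes, 1 of 4 measured adipocyte genes (Retn, 5.31 after GW9662 and 5.38 in vehicle), 0 of 3 measured Schwann cell genes and 1 of 7 skeletal muscle genes (Mb) lay above the mark. Adipoq, the adiponectin gene of fat cells, averaged 3.14 and 3.23. Their means ran from 3.40 to 3.44, 3.96 to 4.12, 4.66 to 4.82 and 4.22 to 4.26 in GW9662 samples, and from 3.38 to 3.44, 4.03 to 4.18, 4.69 to 4.78 and 4.23 to 4.29 in vehicle samples. Tnnt3, a muscle troponin, was the 1 gene of these lists with an unadjusted p under 0.05, at -0.21 ± 0.07 (SE; limma adjusted p = 0.997). Such a p was reached by 3.5% of all 17097 genes.

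The ligand genes measured had signals below the mark that Pdgfra also missed. Pdgfb, a ligand of both receptors, measured 4.34, 4.33, 4.52 and 4.26 in GW9662 samples, and 4.39, 4.38, 4.50 and 4.62 in vehicle samples. Pdgfd, which acts mainly through PDGFRB, measured 5.02, 4.38, 4.30 and 4.78 in GW9662 samples, and 4.79, 4.68, 4.55 and 4.84 in vehicle samples. Pdgfc, a ligand of PDGFRA, averaged 4.00 ± 0.18 after GW9662 and 3.89 ± 0.12 in vehicle. All 3 lay below the 95th percentile of the receptor genes, and their groups overlapped. Pdgfa had no probe set annotated to it alone. Pdgfrl, which encodes a protein resembling the outer part of the receptors, stood at the 98.0 percentile. It measured 9.99, 9.79, 9.91 and 9.77 in GW9662 samples, and 9.83, 9.90, 9.52 and 9.21 in vehicle samples, where vehicle 4 was lowest. Its log2 fold change was 0.25 ± 0.14 (SE; limma adjusted p = 0.997).

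Genes of the PDGF list, which holds the ligands and Pdgfrl too, were mostly above the mark, and none passed the test. Of 31 measured genes of 33 listed, 26 (83.9%) had a mean above it, beside 51.5% of all genes. The brightest were Lrp1 (an endocytic receptor that binds PDGFRB), Pik3r1 (a regulatory subunit of phosphoinositide 3-kinase) and Fyn (a Src family kinase). The log2 fold change was above 0 for 19 and below 0 for 12 of the 31. Its median was 0.03, beside -0.005 over all 17097 genes. With limma, 0 of the 31 passed the adjusted test, 1 was higher at an unadjusted p under 0.05 and 0 were lower, where 3.5% of all genes had such a p. That gene was Crk, an adaptor that binds phosphorylated receptors, with 7.34, 7.36, 7.35 and 7.51 in GW9662 samples, and 7.21, 7.22, 7.36 and 7.12 in vehicle samples. Its log2 fold change was 0.16 ± 0.07 (SE; limma adjusted p = 0.997), and GW9662 and vehicle values overlapped. With the mean of its 5 probe sets the log2 fold change was 0.08, and without both samples of number 4 it was 0.09.

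The genes whose pattern over the 8 samples was most like that of the receptors were taken from the genes of above-median signal and spread. For Pdgfra these were Rchy1 (Pearson r = 0.98), Sec23ip (0.98) and Tpm1 (0.94) of 5332 genes. For Pdgfrb they were Prxl2a (0.94), Aig1 (0.94) and Fst, the activin-binding follistatin (0.92), of 5331 genes. With 8 samples and this many genes, high values of r arise readily, and no p is given. Like Pdgfra, Rchy1 was lowest in sample 1 of both groups, GW9662 3 and vehicle 4, with 5.66, 5.94, 5.62 and 5.96 in GW9662 samples, and 5.56, 5.92, 5.93 and 5.57 in vehicle samples.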

How the data were processed

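Expression was measured by microarray in sorted dermal fibroblasts of 8 mice, 4 per group, with groups taken from the sample titles. The deposited values are log2 signal intensities for 45141 probe sets. Per the submitters' processing notes, the authors used RMA and the affy package, without versions, so arrays had been background-corrected, made equal in distribution and summarised by probe set. The base of the logarithm was read from the range, 2.44 to 12.96. Sample medians were 4.63 to 4.69, and no further scaling was applied. RMA can hide a shift common to most genes, and 21 cycles of amplification can change relative signals. No detection calls were used, and the number of animals limits the precision.

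Gene names came from the platform's annotation in GEO, with symbols updated by gene ID to RefSeq (GRCm38.p6). Of the probe sets, 28898 had 1 gene, 551 several and 15588 none, and 104 were controls and were left out. For 209 of the named sets the annotation's own symbol was kept. The comparison, GW9662 minus vehicle, used lmFit and eBayes of limma 3.58.1 (R 4.3.3) without covariates on 45037 probe sets, two-sided, with Benjamini-Hochberg adjustment and a threshold of 0.05. It was tested on simulated data in which samples were independent, so a shared day or pair was not simulated. Where 1 set stood for a gene, it was that of highest mean. The genes, lists and tests were chosen with earlier results of these data known. Named were all probe sets of the 9 genes, the PDGF ligands and Pdgfrl, defining genes and up to 3 brightest genes of a list, and list genes with an unadjusted p under 0.05, and for each PDGF receptor the 3 genes of highest correlation; Csf1r, H2-Ab1, Egfl7, Des, Tie1, Pmel and Tyr, named for their signal, were chosen after their values were seen.

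Same-numbered samples were read as pairs, because the design text says 1 animal of each group was collected per day and their deviations from the group means correlated at 0.218, 0.157, 0.108 and 0.147 for numbers 1 to 4. Of the 8 samples, 7 correlated best with their own number in the other group. No samples shared more than 3.04% of values, so all were counted. Alternatives were the replicate block, trend and robust variances, the brighter probe sets, quantile normalization run again, centring on medians, array weights, one set per gene or the average of its sets, each sample left out and, chosen after seeing the data, both samples of number 4 left out.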

Additional observations from a re-analysis of the deposited data

Results flagged for a closer look

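In groups of 4 samples, the highest or lowest sample lay further from the rest than Dixon's 95% limit in 4 of 46 groups examined, where chance flags about 1 in 20. Cd34 was at 10.49 in vehicle 4, with 10.77 to 10.81 in the other vehicle samples. The lower Epcam set was at 3.06 in GW9662 1, while the other 3 GW9662 samples had the same value, 3.13. The mean of the keratinocyte list was 4.89 in GW9662 2, beside 4.80 to 4.81 in the other GW9662 samples, and that of the dermal papilla list was 3.44 in GW9662 3, beside 3.40 in the other 3.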

How the results depend on the processing

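No probe set of the 9 genes, and none of all probe sets, passed limma's adjusted test under any of the 17 alternatives, with a lowest adjusted p of 0.949 among the 9 genes. With the replicate block the count stayed at 0 (2185 probe sets at an unadjusted p under 0.05 in limma, beside 1597 without it), and the smallest adjusted p of the 9 genes was 0.975. Pairing narrowed the interval of Pecam1 most, to -0.03 to 0.27 (unadjusted p = 0.104 in limma). The count of the 9 genes' sets at an unadjusted p under 0.05 was 1 after quantile normalization run again and 1 after centring on medians, and ran from 0 to 1 with a sample left out. In each case the set was the higher one of Epcam. Its unadjusted limma p was 0.0422 and 0.0471 in those settings, 0.0262 without GW9662 1 and 0.0493 without vehicle 4. Over all probe sets, 1597 had such a p, and 1049 (without GW9662 3) to 2265 with a sample left out. The count was 716 among the 22518 brighter sets, 578 with 1 set per gene and 533 with the mean of a gene's sets, where fewer features were tested. Signs of differences near 0 turned in some settings. The log2 fold change of Pdgfrb was -0.0087 with array weights, and that of Ptprc 0.0011 after quantile normalization run again. Cd24a was at 0.03 with the mean of its sets. Without both samples of number 4, a choice made after seeing the data, Pdgfra was at -0.03, Pdgfrb at -0.0033 and Thy1 at -0.0267. With a sample left out, log2 fold changes ran from 0.03 to 0.18 for Pdgfra, -0.08 to 0.03 for Cd34, -0.0542 to 0.0692 for Pdgfrb, -0.0217 to 0.1083 for Thy1, -0.0417 to 0.0225 for Ptprc, -0.0717 to 0.0217 for the higher Cd24a set, 0.03 to 0.20 for Pecam1 and -0.0108 to 0.02 for the lower Epcam set. Ranked among probe sets with 1 gene, Pdgfra and Pecam1 had mean percentiles of 49.4 and 49.8.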

Other observations

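Mlana, a melanosome gene of the melanocyte list, was at 6.30 in GW9662 1, beside 4.84 to 5.27 in the other GW9662 samples and 4.71 to 5.21 in vehicle samples. The other pigment genes did not share that value, with Pmel at 4.91 and Tyr at 3.99 in GW9662 1. Trp63, a transcription factor of basal keratinocytes, was lower after GW9662 in 4 of 4 pairs, at a log2 fold change of -0.25 ± 0.13 (SE; limma unadjusted p = 0.0902, adjusted p = 0.997).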
